A study of Mus musculus with 12 samples.

Results

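Organoids of bile duct epithelium grown from the hilum of wild-type mouse livers were compared with organoids grown from the periphery of the same livers. The comparison took the 6 libraries of the Jag1 +/+ genotype out of 12 in the series, as the labels assign them, and used every gene. Each of 3 mice (1221, 1223 and 1225) had given 1 hilar and 1 peripheral culture, and each culture gave 1 library, so the 2 regions were set against each other within a mouse.

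The biliary tree gathers bile from the liver. Its small peripheral ducts lie near the hepatocytes that make the bile, and they join into large ducts that leave the liver at the hilum. Cholangiocytes of large ducts are known for hormone-driven secretion of bicarbonate and for mucous glands along the duct wall, whereas those of small ducts are smaller and less specialised. Jag1 is a ligand of the Notch receptors, and Notch signalling directs liver progenitors to become bile ducts.

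The groups were WT hilar organoids (Jag1 +/+, n = 3), WT peripheral organoids (Jag1 +/+, n = 3) and, used here for comparison only, the hilar and peripheral organoids of 3 mice with the Jag1 Ndr/Ndr genotype (1219, 1220 and 1224; n = 3 each), which carry a missense allele of the ligand. All were untreated intrahepatic cholangiocyte organoids, grown in domes of Matrigel, and RNA was taken at passage 5. Mice 1221 and 1223 shared a derivation date of 15 June and mouse 1225 was derived on 21 June. Organoids of this kind are expanded in culture from the starting cells, so the cultures stand for what grew out of each region, and the 3 pairs are the only replicates. Values are CPM (counts scaled to the size of the library) and differences are log2 hilar minus peripheral, so that a negative value means less in the hilar culture.

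Total counts ranged between 6708822 and 16030880 in the 3 WT hilar libraries and between 8405443 and 12356642 in the 3 WT peripheral ones. All came from males by their Y-linked transcripts. The 7 markers of bile duct epithelium were present in every library and summed to between 8246 and 10480 CPM in hilar and between 9217 and 11080 CPM in peripheral cultures, so both regions carried the labelled cell type. The 6 hepatocyte markers summed to between 2.512 and 26.96 CPM in hilar and between 3.286 and 25.3 CPM in peripheral cultures, with Cyp3a11 and Cps1 at 0 throughout. Outside these 6, the liver genes Mup20 and Cyp4a12a stood at 104 and 67.1 CPM in the hilar culture of mouse 1221. In the other WT libraries they reached at most 10.9 and 7.3 CPM. The 8 fibroblast and stellate cell markers summed to at most 1.22 CPM in hilar and 1.596 CPM in peripheral cultures, with Dcn and Des at 0, and the 6 endothelial markers to at most 0.1545 and 0.53 CPM, with Kdr at 0. The 7 immune markers summed to between 12.51 and 18.6 CPM in hilar and between 18.06 and 24.06 CPM in peripheral cultures, with Adgre1 and Clec4f among those at 0. Nearly all of that sum was Csf1r (5.87 to 16.77 CPM) and Cd68 (1.769 to 10.7 CPM), present in every library. The 7 gut and pancreas markers summed to between 8.599 and 12.97 CPM in hilar and between 8.014 and 17.17 CPM in peripheral cultures, with Ins1, Ins2 and Prss1 at 0. Most of that sum was Cdx2, at 7.536 to 16.11 CPM in every library. Of the 3 mesothelial markers, Msln supplied nearly the whole sum, at 37.44 to 657.7 CPM, and Wt1 was at 0.

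The hilar cultures were less alike than the peripheral ones. Over 15014 genes, the log2 CPM of the 3 pairs of hilar libraries correlated at 0.913 to 0.935, and those of the 3 pairs of peripheral libraries at 0.959 to 0.971. Libraries of the same mouse correlated at 0.97 (mouse 1221), 0.957 (mouse 1223) and 0.961 (mouse 1225). The hilar culture of mouse 1225 stood farthest from the rest, with a median correlation of 0.929 to the other 5 libraries, and the hilar library of mouse 1221 was closest to the peripheral library of mouse 1223, at 0.976. These correlations run across genes, which are not independent replicates, and describe the 6 libraries only. The spread between mice was the larger part of the variance: over the 6 libraries, mouse accounted for 54.9%, region for 11.4% and the mouse-by-region remainder for 33.7%, where their shares of the degrees of freedom were 40%, 20% and 40%.

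No gene passed the paired test of hilar against peripheral organoids. With edgeR's quasi-likelihood test, fitted over all 12 libraries with mouse as a block, 0 of 15014 genes (0%) passed an adjusted p of 0.05, and every adjusted p was 1. An unadjusted p below 0.05 was reached by 72 genes (0.48%), 24 with the higher value (0.16%) and 48 with the lower value (0.32%) in hilar cultures. The median standard error of a log2 difference was 0.377, and the median log2 difference over all genes was -0.01. In the same fit on the 6 WT libraries alone, 261 of 14160 genes (1.84%) had an unadjusted p below 0.05 and again 0 passed the adjustment. DESeq2 called 1 gene, Smoc1 (0.00666% of genes). With 3 pairs, an exact sign-flip permutation test of a single gene cannot go below a two-sided p of 0.25, so the spread was estimated across genes.

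The direction of the region difference was rarely shared by the mice. The same sign in all 3 mice was found for 2957 genes (19.7%), where independent signs would give 25%, with 1553 genes (10.3%) higher and 1404 (9.35%) lower in hilar cultures. The 3 hilar values lay wholly above the 3 peripheral values for 442 genes (2.94%) and wholly below them for 390 genes (2.6%), together 5.54%. A difference of more than 2-fold in the same direction in each mouse was found for 26 genes (0.173%), 9 of them higher (0.0599%) and 17 lower (0.113%) in hilar cultures. Within single mice, differences over 2-fold were common, at 1382 genes (9.2%) in mouse 1221, 2152 (14.3%) in mouse 1223 and 2052 (13.7%) in mouse 1225. Across genes, the differences of mice 1221 and 1223 ran opposite (r -0.313, rho -0.272), although these mice shared a derivation date. The other pairs of mice had an r of 0.0883 (1221 and 1225) and -0.137 (1223 and 1225).

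**Figure D1:**
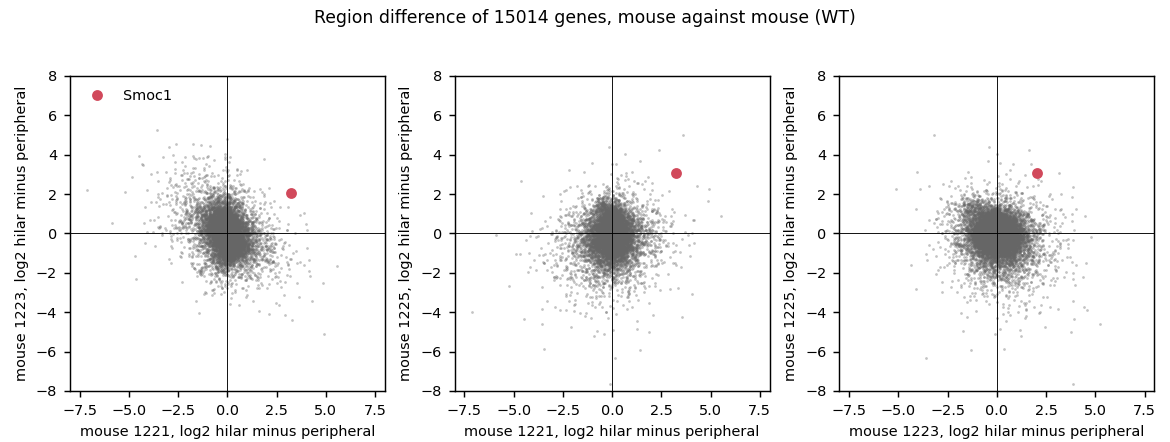
Region difference (log2 hilar minus peripheral) of each of 15014 genes in 1 WT mouse against another, with 1 point per gene and Smoc1 in red. The clouds follow no common diagonal, with an r of -0.313 for mice 1221 and 1223, and Smoc1 lies in the upper right quadrant of each panel.

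For Jag1, the hilar and peripheral cultures overlapped. Jag1 (ENSMUSG00000027276) stood at 186, 99.6 and 73.1 CPM in the hilar cultures of mice 1221, 1223 and 1225, against 94.5, 179 and 110 CPM in the peripheral ones. It was higher in the hilar culture of mouse 1221 only, and the log2 difference of -0.16 (SE 0.502) changed sign when mouse 1223 (0.194) or mouse 1225 (0.0798) was left out. Of 27 tested Notch ligands, receptors and modifiers, 4 were lower in the hilar culture of all 3 mice (against 9.35% of all genes) and 0 were higher, with a median log2 difference of -0.27 against -0.01 over all genes. Without mouse 1223 that median was -0.06. Adam10, the protease that makes the first cut of ligand-bound Notch, had 257, 222 and 214 CPM in hilar and 298, 265 and 314 CPM in peripheral cultures, with no overlap between the groups (log2 -0.34, SE 0.26). It was the 1 of the 27 genes without overlap, against 5.54% of all genes. Of 13 Notch targets, 3 were lower in all 3 hilar cultures (9.35% of all genes) and 0 were higher. Their median log2 was -0.22 in mouse 1221, 0.17 in mouse 1223 and -0.39 in mouse 1225. In mouse 1223, 7 of the 13 were higher in the hilar culture. Among the 3 lower targets was Dtx1, a Notch-regulated ubiquitin ligase. It had 7.2, 3.86 and 0.251 CPM in hilar and 25.1, 8.73 and 3.5 CPM in peripheral cultures (log2 -2.0, SE 0.87). Each Dtx1 pair differed in the same direction, the level also differed between mice, and the groups overlapped. Id2, an inhibitor of helix-loop-helix factors, had 427, 346 and 190 CPM in hilar and 519, 551 and 391 CPM in peripheral cultures (log2 -0.67, SE 0.30).

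Genes of bile duct identity had small differences of both signs. Of 30 tested members, 1 was higher (10.3% of all genes) and 5 were lower (9.35% of all genes) in all 3 hilar cultures. The median log2 difference was -0.14. The cytokeratin Krt7 had 787, 1273 and 3366 CPM in hilar and 924, 647 and 2103 CPM in peripheral cultures (log2 0.48, SE 0.33), with the highest value in each region in mouse 1225. The secreted phosphoprotein Spp1 had 6896, 3972 and 1242 CPM in hilar and 6104, 7590 and 2724 CPM in peripheral cultures (log2 -0.64, SE 0.581). Both groups overlapped for these genes, and in bulk RNA fewer cells of a kind and less RNA per cell cannot be told apart. Of the 30 genes, Anxa4, a calcium-binding annexin, was the 1 whose groups did not overlap, at 771, 771 and 812 CPM in hilar and 987, 903 and 1043 CPM in peripheral cultures (log2 -0.32, SE 0.25), where 5.54% of all genes had groups without overlap.

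Genes known from large ducts and their mucous glands, which mark the hilar end of the tree in the liver, had a region difference that depended on the mouse. Of 23 tested members, 3 were higher in the hilar culture of all 3 mice (10.3% of all genes). In all 3 mice 0 were lower (9.35% of all genes), and the groups of none were free of overlap (5.54% of all genes). The median log2 difference was 0.22, made up of -0.63 in mouse 1221, 0.84 in mouse 1223 and 0.66 in mouse 1225, and it was -0.27 without mouse 1223. Aqp5, a water channel of glands, had 36.8, 141 and 116 CPM in hilar and 29.8, 117 and 20.1 CPM in peripheral cultures (log2 1.0, SE 0.90). The gel-forming mucin Muc5b was less abundant in the hilar cultures of mice 1221 and 1225 and more abundant in that of mouse 1223, with 0.122, 1.85 and 0 CPM in hilar and 44.8, 0.239 and 3.07 CPM in peripheral cultures. Of 23 genes of ductal secretion, 3 were higher (10.3% of all genes) and 3 lower (9.35% of all genes) in all 3 hilar cultures. Their median log2 was -0.20. Groups did not overlap for 3 of the 23 genes (5.54% of all genes). The bicarbonate cotransporter Slc4a4 was lower in each hilar culture, without overlap, at 413, 302 and 158 CPM against 572, 441 and 463 CPM in peripheral cultures (log2 -0.85, SE 0.48).

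By the smallest unadjusted p, 24 genes of at least 5 CPM were taken to describe the comparison, 7 with higher and 17 with lower values in hilar organoids. All 24 had the same sign in the 3 mice (19.7% of all genes) and 14 had groups that did not overlap (5.54% of all genes). Both counts follow in part from the choice by p. Smoc1 (ENSMUSG00000021136), a secreted calcium-binding protein of basement membranes, had the smallest p. It stood at 18.5, 11.6 and 32.5 CPM in the hilar cultures of mice 1221, 1223 and 1225 and at 1.76, 2.63 and 3.71 CPM in the peripheral ones. Each hilar value was above every peripheral value (20.9 ± 10.7 against 2.7 ± 0.974 CPM, SD, n = 3 each; log2 2.89, SE 0.587). The edgeR adjusted p was 1 and the DESeq2 adjusted p 0.0114, and over 17 alternative settings the log2 difference lay between 2.48 and 4.67. No other gene of the list of TGF-beta and mesenchymal genes to which it belongs had an unadjusted edgeR p below 0.05 (0.48% of all genes). Of the 26 tested members of that list 4 were lower in all 3 hilar cultures (9.35% of all genes). The median log2 was -0.46, and -0.12 without mouse 1225.

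**Figure D2:**
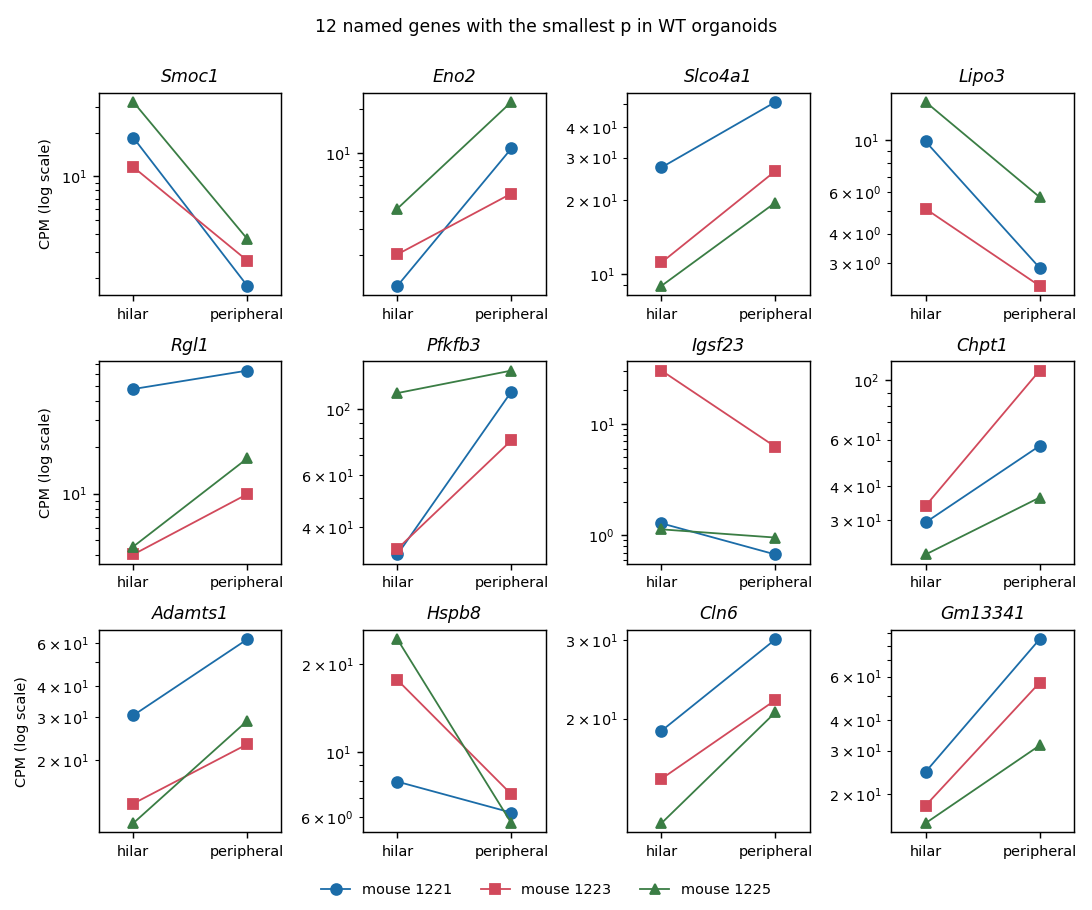
CPM on a log scale in the hilar (left) and peripheral (right) culture of each WT mouse, for the 12 named genes of the smallest p, with 1 line per mouse. Lines of a panel slope the same way in all 3 mice, and the gap between mice is as wide as the slope for genes such as Rgl1 and Igsf23.

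The other genes with higher hilar values were less abundant or less separated. The small heat shock protein Hspb8 had 7.93, 17.6 and 24.2 CPM in hilar and 6.22, 7.18 and 5.72 CPM in peripheral cultures, with no overlap (log2 1.24, SE 0.399). Ggact, an enzyme that breaks down cross-linked amino acids, had 24.3, 27 and 22.4 CPM in hilar and 14.1, 20.7 and 12.5 CPM in peripheral cultures (log2 0.67, SE 0.251). F730043M19Rik had 21, 10 and 8.16 CPM against 5.88, 6.46 and 5.72 CPM (log2 1.0, SE 0.358). These 3 genes had no overlap between regions. Tpm2, a tropomyosin of actin filaments, had 11.2, 42 and 32.7 CPM in hilar and 9.92, 7.66 and 15.4 CPM in peripheral cultures, where the hilar value of mouse 1221 lay among the peripheral ones (log2 1.23, SE 0.453). Lipo3, of the lipase family, had 9.88, 5.1 and 14.6 CPM against 2.86, 2.39 and 5.72 CPM, with overlap (log2 1.41, SE 0.393). Igsf23, an immunoglobulin superfamily member, had 1.28, 30.1 and 1.13 CPM in hilar and 0.672, 6.22 and 0.954 CPM in peripheral cultures, most of it in mouse 1223. Its log2 difference of 1.33 became -1.06 without the hilar library of mouse 1223 in a fit that did not pair the mice.

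Genes with lower hilar values included several of signalling and transport. Ackr3, a receptor that scavenges the chemokine CXCL12, had 2.87, 1.24 and 3.01 CPM in hilar and 10.9, 3.83 and 13.5 CPM in peripheral cultures, with no overlap (log2 -1.92, SE 0.654). Chpt1, which makes phosphatidylcholine, had 29.3, 33.8 and 22.2 CPM in hilar and 56.8, 109 and 36.4 CPM in peripheral cultures, again without overlap (log2 -1.12, SE 0.354). It was the 1 of 20 tested phospholipid synthesis genes with an unadjusted edgeR p below 0.05 (0.48% of all genes), and it was named for that p. Gpc6, a glypican of the cell surface, had 16.2, 14.5 and 17.6 CPM in hilar and 29.2, 25.1 and 30.7 CPM in peripheral cultures (log2 -0.81, SE 0.298). Arrb1, the adaptor beta-arrestin 1, had 47.9, 25.3 and 47.2 CPM in hilar and 112, 51.6 and 64.3 CPM in peripheral cultures (log2 -0.90, SE 0.337). Neither gene's groups overlapped, nor did those of the kinase Jak3 (28.1, 28.6 and 15.3 CPM in hilar, 41.3, 36.5 and 41.9 CPM in peripheral cultures) or of Cln6, an endoplasmic reticulum protein needed for lysosomes (18.8, 14.7 and 11.7 CPM against 30.1, 22 and 20.7 CPM). Selenbp1, a selenium-binding protein, had 22.5, 58.1 and 55.8 CPM in hilar and 87.6, 77.5 and 112 CPM in peripheral cultures (log2 -1.13, SE 0.399).

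The remaining genes with lower hilar values also differed in level between mice. Slco4a1, an organic anion transporter, had 27.3, 11.1 and 8.92 CPM in hilar and 50.8, 26.4 and 19.6 CPM in peripheral cultures (log2 -1.09, SE 0.271). Rgl1, an activator of Ral proteins, had 47.9, 4.02 and 4.52 CPM in hilar and 63.2, 9.93 and 17 CPM in peripheral cultures, and its log2 difference of -1.17 became 0.501 when the peripheral library of mouse 1221 was left out of the unpaired fit. The secreted protease Adamts1 had 30.4, 13.3 and 11.1 CPM against 62.2, 23.2 and 28.9 CPM (log2 -1.07, SE 0.341). The ubiquitin ligase Znrf2 had 180, 130 and 87.8 CPM against 235, 274 and 171 CPM (log2 -0.81, SE 0.275), and the copper pump Atp7b had 14.5, 4.94 and 8.67 CPM against 30.2, 16 and 12 CPM (log2 -1.07, SE 0.386). In each of these 5 genes every mouse had the lower value in its hilar culture and the groups overlapped. The predicted genes Gm37752 (log2 -0.84, SE 0.292) and Gm13415 (log2 -1.37, SE 0.487) also had lower hilar values in each mouse, and the groups of Gm13415 did not overlap.

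Of the 38 gene lists, that of the mitochondrial genome had the largest share of members with 1 direction in all 3 mice. These 13 mRNAs encode subunits of the respiratory chain and the ATP synthase. Their summed level was 8429, 5826 and 5486 CPM in the hilar cultures of mice 1221, 1223 and 1225 and 23176, 17916 and 8566 CPM in the peripheral ones, so every hilar sum lay below every peripheral sum, narrowly between mice 1221 and 1225. Of the 13 transcripts, 12 were lower in the hilar culture of all 3 mice (against 9.35% of all genes), 6 had groups without overlap (5.54% of all genes), and 3 had an unadjusted p below 0.05 in edgeR (0.48% of all genes). The median log2 difference was -1.28, with -1.33 in mouse 1221, -1.84 in mouse 1223 and -0.61 in mouse 1225. Leaving out a mouse moved it to between -0.98 and -1.62. These transcripts share 1 genome and 1 promoter region and are not independent of each other.

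Single transcripts showed the same order. mt-Co3, a core subunit of cytochrome c oxidase, had 1018, 951 and 712 CPM in hilar and 2247, 2123 and 1212 CPM in peripheral cultures, without overlap (log2 -1.02, SE 0.401). The partner subunit mt-Co2 had 489, 345 and 342 CPM in hilar and 1605, 1162 and 541 CPM in peripheral cultures, also without overlap (log2 -1.38, SE 0.582). The most abundant, mt-Co1, had 2692, 2101 and 1894 CPM in hilar and 9037, 5998 and 2967 CPM in peripheral cultures (log2 -1.31, SE 0.678). mt-Nd3, of complex I, was the exception, at 172, 213 and 121 CPM in hilar and 179, 200 and 218 CPM in peripheral cultures (log2 -0.27, SE 0.308). Gm13341, annotated as an unprocessed pseudogene and among the 24 named genes, had 24.6, 17.9 and 15.2 CPM in hilar and 85.2, 56.7 and 31.5 CPM in peripheral cultures (log2 -1.51, SE 0.506). Counts of such copies are uncertain, because the treatment of reads shared between near-identical genes is not given in the sources used here.

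Nuclear genes of the respiratory chain did not follow in all 3 mice. Of 27 tested members, 4 were higher in all 3 hilar cultures (10.3% of all genes) and 0 were lower (9.35% of all genes). Their median log2 was 0.13, with -0.16 in mouse 1221, 0.49 in mouse 1223 and 0.17 in mouse 1225. That median was 0.03 without mouse 1223. Sdhb, a subunit of complex II, had 82.3, 110 and 99.1 CPM in hilar and 77.6, 76.8 and 74.6 CPM in peripheral cultures (log2 0.34, SE 0.31). The mitochondrial share of all counts was 0.879%, 0.601% and 0.582% in hilar and 2.27%, 1.82% and 0.872% in peripheral libraries, and the part of RNA quality in this difference was not tested. An abundant identifier without a symbol, ENSMUSG00000119584, chosen after its values were seen, ran the other way at 2428, 9264 and 8859 CPM in hilar and 1482, 1024 and 1067 CPM in peripheral cultures (log2 2.36, SE 0.774). Its values in the Ndr cultures were 1807, 1162 and 6859 CPM in hilar and 1977, 2376 and 1533 CPM in peripheral organoids (mice 1219, 1220 and 1224). The mitochondrial list was not lower in all Ndr hilar cultures either, with medians of -2.36 in mouse 1219, 0.33 in mouse 1220 and 0.81 in mouse 1224. The difference between the WT and the Ndr region effect had an unadjusted p below 0.05 for 0 of the 13 transcripts, and an adjusted one for none in edgeR.

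**Figure D3:**
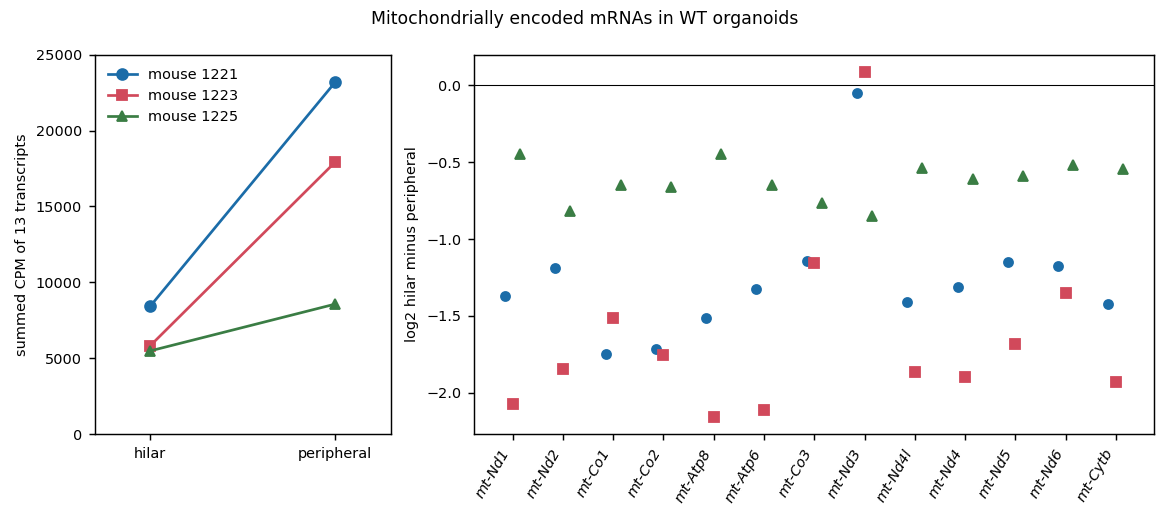
Left, summed CPM of the 13 mitochondrially encoded mRNAs in the hilar and peripheral culture of each WT mouse. Right, log2 hilar minus peripheral of each transcript in each mouse, where 12 of 13 lie below 0 in all 3 mice and mouse 1225 has the smallest difference for most.

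Glycolytic enzymes and targets of the hypoxia response had lower values in hilar organoids, mainly in mouse 1221. This pathway turns glucose into lactate and is switched on by the oxygen-regulated HIF factors. Of 31 tested members, 30 had a negative log2 difference, 11 were lower in the hilar culture of all 3 mice (9.35% of all genes) and 0 were higher. An unadjusted p below 0.05 in edgeR was reached by 3 members, all with lower hilar values (0.32% of all genes). The median log2 difference was -0.58, with -1.24 in mouse 1221, 0.12 in mouse 1223 and -0.32 in mouse 1225, and it was -0.07 without mouse 1221. Eno2, an enolase, had 1.22, 2.01 and 4.15 CPM in hilar and 10.8, 5.26 and 22.5 CPM in peripheral cultures, with no overlap (log2 -2.35, SE 0.568). Pfkfb3, which makes the activator of the committing step of glycolysis, had 32.4, 33.8 and 113 CPM in hilar and 114, 78.5 and 135 CPM in peripheral cultures (log2 -1.10, SE 0.336). Its groups overlapped through the hilar culture of mouse 1225. Egln1, the oxygen sensor that marks HIF for destruction, had 62, 49.4 and 104 CPM in hilar and 128, 70.1 and 179 CPM in peripheral cultures (log2 -0.78, SE 0.317). Hexokinase 2 (Hk2) had 59.8, 72.4 and 94.8 CPM in hilar and 142, 98.4 and 139 CPM in peripheral cultures, without overlap (log2 -0.75, SE 0.357). Eno2 and Hk2 were the 2 of 31 members without overlap, against 5.54% of all genes. Abundant enzymes differed less, with Pkm, a pyruvate kinase, at 1170, 1232 and 2635 CPM in hilar and 2159, 1286 and 2644 CPM in peripheral cultures (log2 -0.31, SE 0.355). Glycolysis genes had lower hilar values in the Ndr mice as well (median log2 -1.08), with -1.57 and -1.41 in mice 1220 and 1224 and 0.05 in mouse 1219.

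The upstream sequences of the 3 genes with an unadjusted edgeR p below 0.05 are shown because ACGTG is a core site that HIF factors bind. Only ACGTG was searched, and other forms of the site were neither marked nor counted. Each sequence is the 250 bases before the annotated start on the gene's strand, from RefSeq on GRCm38.p6. Pfkfb3 has 2 starts in the table. Capitals mark ACGTG or its reverse complement CACGT, and a palindrome CACGTG, also the binding letters of other factors, holds both. Eno2 lies at chr6:124769674-124769923 (minus strand), the first and second Pfkfb3 starts at chr2:11553930-11554179 and chr2:11502091-11502340 (minus strand), and Egln1 at chr8:124949255-124949504 (minus strand).
Eno2: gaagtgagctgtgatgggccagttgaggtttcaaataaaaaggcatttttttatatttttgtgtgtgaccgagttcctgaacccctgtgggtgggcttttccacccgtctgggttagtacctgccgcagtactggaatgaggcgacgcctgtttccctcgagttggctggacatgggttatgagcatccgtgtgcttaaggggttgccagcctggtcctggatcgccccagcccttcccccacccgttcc
Pfkfb3, first start: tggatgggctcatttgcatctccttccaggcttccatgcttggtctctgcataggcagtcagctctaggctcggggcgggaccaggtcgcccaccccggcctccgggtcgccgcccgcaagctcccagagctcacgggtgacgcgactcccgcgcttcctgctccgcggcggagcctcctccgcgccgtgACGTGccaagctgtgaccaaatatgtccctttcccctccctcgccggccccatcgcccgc
Pfkfb3, second start: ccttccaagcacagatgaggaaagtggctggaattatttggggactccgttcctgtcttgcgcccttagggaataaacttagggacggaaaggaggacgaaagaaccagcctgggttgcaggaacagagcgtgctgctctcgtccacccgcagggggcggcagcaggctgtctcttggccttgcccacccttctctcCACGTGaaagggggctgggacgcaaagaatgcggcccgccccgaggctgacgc
Egln1: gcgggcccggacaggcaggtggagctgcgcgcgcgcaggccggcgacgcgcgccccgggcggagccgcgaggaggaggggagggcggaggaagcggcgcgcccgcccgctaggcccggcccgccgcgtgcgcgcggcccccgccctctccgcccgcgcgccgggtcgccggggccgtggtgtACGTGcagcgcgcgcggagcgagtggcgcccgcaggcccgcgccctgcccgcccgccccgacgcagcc
The letters occurred once upstream of the first Pfkfb3 start and of Egln1, as the palindrome upstream of the second Pfkfb3 start, and not in the Eno2 window. Of the 31 list members 29 had a promoter in the table, and 17 of those (58.6%) held ACGTG on either strand, against 18.5% of all genes in the table. Of the 11 members lower in all 3 hilar cultures, 7 (63.6%) held it. The list was made up of known hypoxia targets, so this share says nothing of the region difference.

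Most other lists had medians of opposite sign in different mice. Of 38 lists, 0 had a positive median in every mouse, 10 had a negative one in every mouse and 28 were mixed, and none held a gene past the adjusted threshold. The mitosis genes spread widely, with medians over 28 members of -0.56 in mouse 1221, -1.40 in mouse 1223 and 1.42 in mouse 1225. Mki67, the proliferation antigen, had 61.3, 18.7 and 269 CPM in hilar and 105, 138 and 78 CPM in peripheral cultures, and Top2a, the topoisomerase of dividing cells, 108, 82 and 508 CPM against 190, 225 and 240 CPM. Dividing-cell transcripts were thus less abundant in the hilar cultures of mice 1221 and 1223 and more abundant in that of mouse 1225. The 28 genes of DNA replication had medians of -0.15, -1.13 and 1.0 in the same mice. No mitosis gene of the list was higher or lower in all 3 hilar cultures, where 19.7% of all genes were.

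**Figure D4:**
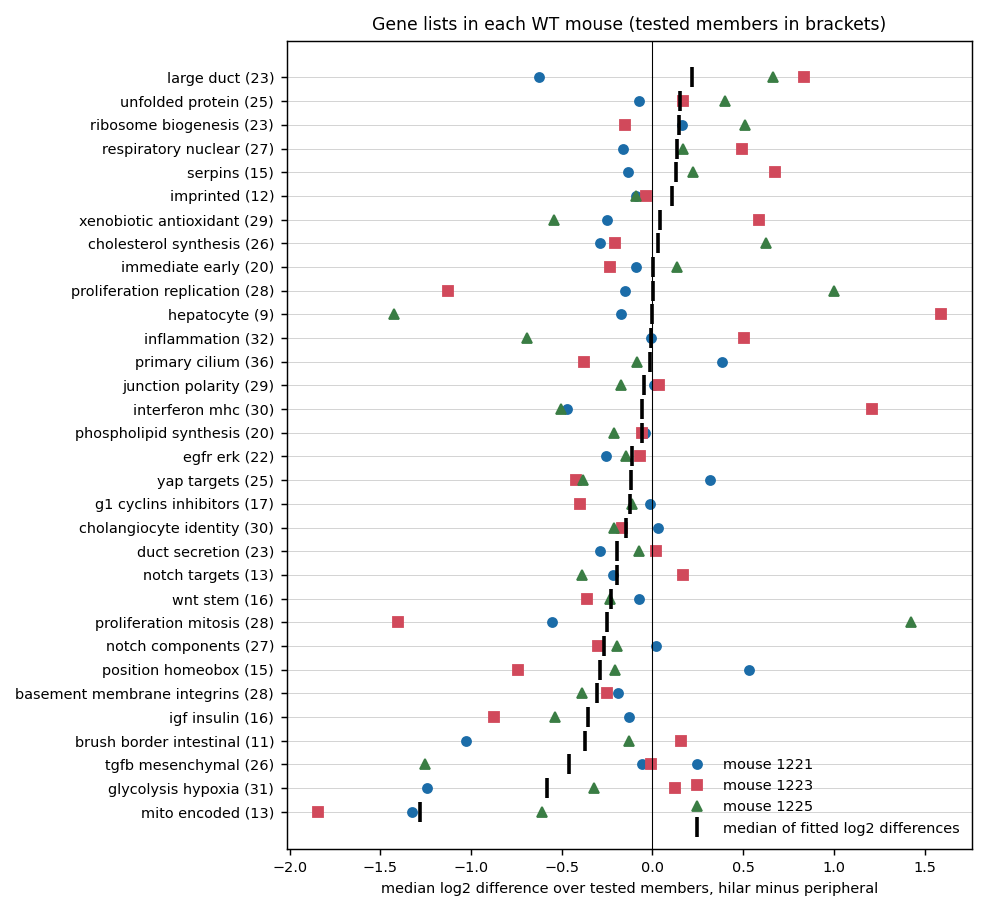
Median log2 difference (hilar minus peripheral) over the tested members of each gene list with at least 9 of them, in each WT mouse (coloured points) and from the paired fit (black bars). The mitochondrially encoded list lies left of 0 in all 3 mice, while mitosis genes range from -1.40 in mouse 1223 to 1.42 in mouse 1225.

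Interferon-stimulated and MHC class I genes had higher hilar values in mouse 1223 only (median 1.21 over 30 members), against -0.47 in mouse 1221 and -0.51 in mouse 1225. Inflammation and acute phase genes had medians of -0.01, 0.51 and -0.69 in mice 1221, 1223 and 1225. Lcn2, an iron-binding protein of innate immunity, had 4126, 7556 and 338 CPM in hilar and 5570, 3932 and 3048 CPM in peripheral cultures, and the complement protein C3 had 3105, 1586 and 154 CPM against 3444, 2299 and 1270 CPM. In the hilar culture of mouse 1225 these secreted proteins stood lowest of the 6, as did transferrin (Trf), at 4318, 3463 and 373 CPM in hilar and 5533, 3967 and 2111 CPM in peripheral cultures (log2 -0.99, SE 0.60). Clu, a secreted chaperone, was also lowest there, with 25364, 19261 and 4805 CPM in hilar and 20353, 18076 and 13199 CPM in peripheral cultures.

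Among lists of growth and matrix genes, differences were small and mostly negative. Basement membrane proteins and integrins were lower in all 3 hilar cultures for 6 of 28 members (9.35% of all genes). They were higher in all 3 for 1 member (10.3% of all genes), and the median log2 was -0.31. Feedback genes and receptors of the EGF and ERK pathway were lower in all 3 for 6 of 22 (9.35% of all genes). None was higher in all 3 (median -0.11). Spred2, an inhibitor of ERK signalling, had 52.5, 45.9 and 48.6 CPM in hilar and 72, 72.2 and 74.1 CPM in peripheral cultures, without overlap (log2 -0.57, SE 0.28). Spry4, another inhibitor of the pathway, had 6.16, 6.18 and 4.65 CPM in hilar and 11.9, 6.34 and 9.75 CPM in peripheral cultures (log2 -0.69, SE 0.34). Spred2 and Spry4 were the 2 of 22 genes without overlap, against 5.54% of all genes. Insulin and IGF signalling genes were lower in all 3 hilar cultures for 5 of 16 members (9.35% of all genes), with a median of -0.36. Of 16 Wnt and stem cell genes 3 were lower in all 3 hilar cultures (9.35% of all genes). Among them was Lgr5, the R-spondin receptor of dividing epithelial stem cells. It had 33, 32.6 and 45.7 CPM in hilar and 153, 53.5 and 63.3 CPM in peripheral cultures (log2 -1.12, SE 0.59). Each hilar Lgr5 value was below each peripheral one. Lgr5 was the 1 of the 16 genes without overlap, against 5.54% of all genes.

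The list with the most members higher in all 3 hilar cultures was ribosome biogenesis, with 6 of 23 higher and 0 lower (background 10.3%). Its median log2 was 0.15, with 0.17 in mouse 1221, -0.15 in mouse 1223 and 0.51 in mouse 1225, so the mice differed in sign. Groups did not overlap for 4 of the 23 genes (5.54% of all genes). Bop1, needed for the large ribosomal subunit, had 104, 68.9 and 153 CPM in hilar and 71.8, 65.8 and 72.1 CPM in peripheral cultures (log2 0.57, SE 0.29), overlapping through mouse 1223. Nop56, a core protein of RNA-modifying particles, had 95.1, 85 and 138 CPM in hilar and 73.1, 75.4 and 72.8 CPM in peripheral cultures, without overlap (log2 0.49, SE 0.36). Unfolded protein response genes were higher in all 3 for 5 of 25 (10.3% of all genes) and lower for 3 (9.35% of all genes). The median over the list was 0.15. Their medians were -0.08 in mouse 1221, 0.17 in mouse 1223 and 0.40 in mouse 1225. The stress factor Atf4 had 173, 337 and 500 CPM in hilar and 134, 256 and 162 CPM in peripheral cultures (log2 0.79, SE 0.49).

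Single mice held far larger differences, which the 3 mice did not all share. In mouse 1221 the hilar culture had 0.122 CPM of Muc5b against 44.8 CPM in the peripheral one, and 104 CPM of the major urinary protein Mup20 against 10.9 CPM. In mouse 1223 it had 53.8 CPM of the neutrophil-type calcium binder S100a9 against 2.39 CPM, and 22.2 CPM of the antiviral enzyme Oas3 against 1.2 CPM. In mouse 1225 it had 0.126 CPM of the acute phase protein Saa3 against 65 CPM, and 4.77 CPM of the intermediate filament vimentin (Vim) against 290 CPM. Vim was also less abundant in the hilar culture of mouse 1221, at 51.8 CPM against 561 CPM, but not in that of mouse 1223, at 6.02 CPM against 4.66 CPM. Saa3 went the other way in mouse 1223, at 34.8 CPM in the hilar and 2.15 CPM in the peripheral culture. These genes were named as the widest differences of 1 mouse and carry no test.

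The region difference of WT mice was set against that of the Ndr mice. Their cultures entered the WT values only through the shared gene filter, library scaling and estimate of spread. The difference of the 2 region effects passed an edgeR adjusted p of 0.05 for 0 of 15014 genes (0%), with 413 (2.75%) below an unadjusted 0.05 and 23 (0.153%) called by DESeq2. For the Ndr region effect of the same fit over 12 libraries, 0 genes passed and 1270 (8.46%) had an unadjusted edgeR p below 0.05. Of the 24 named genes, 11 had the WT direction in all 3 Ndr mice too (2.5% of all genes kept 1 direction in all 6 mice, and 12.7% of the 2957 genes that kept it in the 3 WT mice), and 5 had the opposite direction in all 3 (1.32% of all genes, and 6.7% of those 2957). Because the spread that ranked the 24 genes was estimated with the Ndr cultures included, these counts were not independent of the choice.

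Genes with the same direction in all 6 mice included Hspb8, whose log2 difference was 1.24 in WT and 1.32 in Ndr mice, Ggact (0.67 and 0.75) and F730043M19Rik (1.0 and 1.04). Lower hilar values in all 6 mice were found for Pfkfb3 (-1.10 in WT and -1.0 in Ndr mice), Gpc6 (-0.81 and -0.89) and Arrb1 (-0.90 and -1.40). Hspb8 stood at 10.4, 4.7 and 9.58 CPM in the hilar and 4.34, 1.51 and 4.48 CPM in the peripheral Ndr cultures of mice 1219, 1220 and 1224. These 6 genes were the ones with an unadjusted edgeR p below 0.05 in Ndr mice in the WT direction, as were 826 of 15014 genes tested. Another 4 of the 24 had such a p in the opposite direction (Smoc1, Chpt1, Ackr3 and Tpm2), as had 444 of all genes. Smoc1 did not repeat, at 2.22, 1.05 and 1.79 CPM in the hilar and 19.9, 1.04 and 7.69 CPM in the peripheral Ndr cultures (log2 -1.93 in Ndr against 2.89 in WT mice). The difference between the WT and Ndr effect of Smoc1 was 4.82 (SE 0.86), with an adjusted p of 1 in edgeR and 9.23e-05 in DESeq2. Of 26 cholesterol synthesis genes, 9 had an unadjusted edgeR p below 0.05 for the difference of the 2 region effects (2.75% of all genes). None passed the adjustment in edgeR, and the median log2 difference was 0.03 in WT and -0.94 in Ndr mice. The WT mice differed in sign, with -0.29 in mouse 1221, -0.21 in mouse 1223 and 0.63 in mouse 1225. Without mouse 1225 the WT median was -0.23. The Ndr medians were -0.73, -1.32 and -0.77 in mice 1219, 1220 and 1224.

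**Figure D5:**
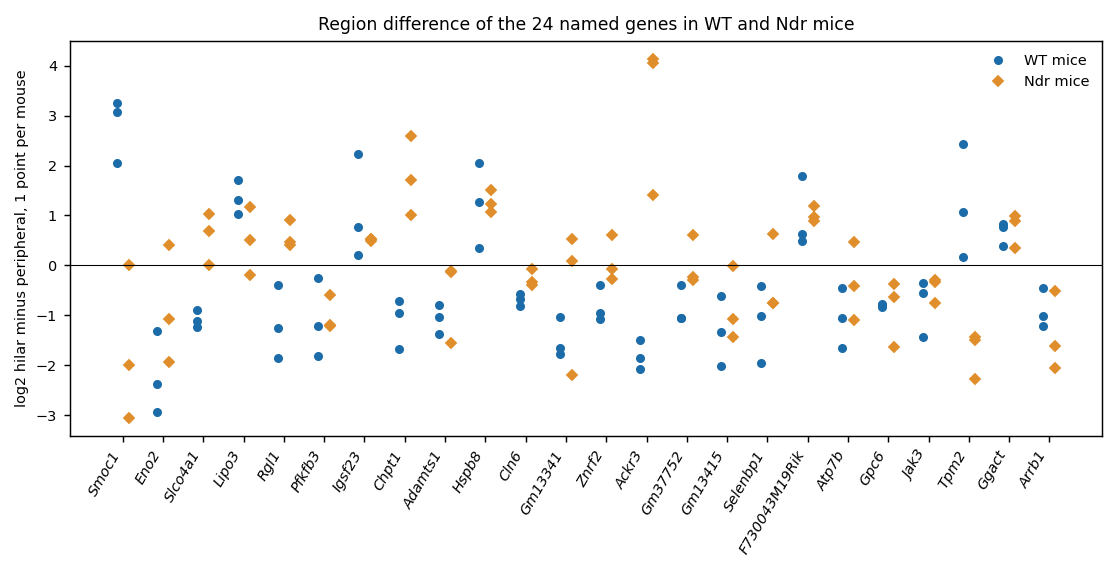
Log2 hilar minus peripheral of the 24 named genes, 1 point per mouse, in WT mice (blue circles) and Ndr mice (orange diamonds). All WT points of a gene share 1 side of 0 by the choice of genes, while the Ndr points lie on the same side for 11 genes and on the opposite side for 5.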

How the data were processed

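RNA from 12 organoid cultures was sequenced after library preparation with a TruSeq RNA v2 kit, which keeps no strand, so reads of a gene and an antisense partner cannot be told apart. The authors deposited raw read counts per gene. The submitters' processing notes name featureCounts and the build GRCm39. How reads were aligned, which annotation was used and how shared reads were treated is not given in the sources used here. They also deposited a normalized table (signal), with DESeq2 1.34.0 named in the submitters' processing notes. Read as multiples of 1 step per library, its values were whole counts in 100% of cases (tolerance 0.01), 43.1% of them equal to the raw count, and the count test on them called 0 genes.

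The raw counts were tested with edgeR 4.0.16 under R 4.3.3, using its robust quasi-likelihood F test, TMM scaling and the filterByExpr filter. Of 53700 identifiers 28444 had at least 1 count and 15014 were tested. The fit over 12 libraries had mouse as a block and a region effect in WT and in Ndr (4 residual degrees of freedom), and adjusted p-values are Benjamini-Hochberg over all genes tested. The log2 difference within a mouse used a prior count of 2. Alternatives used DESeq2 1.42.0 and limma 3.58.1 (voom). Scripts were tested on simulated data. Symbols came from a GENCODE M21 table for 52093 identifiers. Of 875 listed symbols in 38 lists 872 matched. The lists held 907 entries, of which 743 passed the count filter, and counts of members refer to these.

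Hilar and peripheral cultures of a mouse number come from 1 animal, per the labels, so the numbers pair the libraries. Deviations from the group means correlated within a mouse at 0.333 (1221), -0.0624 (1223) and 0.45 (1225). Named genes were Jag1, the 24 with a symbol, at least 5 CPM in the higher group and the smallest p, up to 4 list members by p and 2 by level, and up to 5 genes of at least 20 CPM each way in single mice; members of a described list shown for their level or 1-mouse values, and ENSMUSG00000119584, were named after their values were seen. The comparison and the lists were chosen with earlier results of these data known. Intervals and p-values reflect the spread between these mice and counting error only.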

Additional observations from a re-analysis of the deposited data

Results flagged for a closer look

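For 5 of the 24 named genes, every WT mouse had one direction between the regions and every Ndr mouse the opposite. Of the 15014 genes tested, 1.32% did so, and of the 2957 genes with 1 direction in all 3 WT mice, 6.7% did. In edgeR the difference of the region effects had an adjusted p of 1 for each of the 5 genes. The 24 genes were picked for a regular WT difference, so a WT direction shared by 3 mice was no finding in itself. No list of the 38 met the same description.

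Ackr3, the scavenger of CXCL12, had a log2 difference of -1.92 in WT mice and 3.36 in Ndr mice (difference -5.28, SE 0.986). Its Ndr cultures had 5.22, 20.4 and 19.4 CPM in hilar and 0.103, 1.04 and 7.14 CPM in peripheral organoids, and DESeq2 gave the difference an adjusted p of 9.23e-05. Chpt1, of phosphatidylcholine synthesis, had -1.12 in WT and 1.78 in Ndr mice (difference -2.89, SE 0.507; DESeq2 adjusted p 0.00037), with 66.5, 111 and 53.9 CPM in hilar and 20.1, 18.2 and 26.8 CPM in peripheral Ndr organoids. Tpm2, a tropomyosin, had 1.23 in WT and -1.77 in Ndr mice (DESeq2 adjusted p 0.0139). Slco4a1, an organic anion transporter, had -1.09 in WT and 0.58 in Ndr mice, where 1 Ndr mouse was near 0 at 0.01. Rgl1, an activator of Ral, had -1.17 in WT and 0.61 in Ndr mice.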

How the results depend on the processing

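The count of genes past an adjusted p of 0.05 was 0 in edgeR under every alternative run and with limma-voom, and 1 (Smoc1) in DESeq2. The count at an unadjusted p below 0.05 was 72 and moved to 261 (6 WT libraries alone), 163 (6 WT libraries, no replicate block), 140 (no filter on low counts), 122 (DESeq2) and 184 (counts recovered from the normalized table). Leaving out mice gave 66 to 197 such genes (197 without mouse 1223). Leaving out single libraries in the unpaired fit gave 373 and 42 (hilar and peripheral library of 1221), 204 and 116 (of 1223) and 191 and 113 (of 1225). Without the replicate block it was 76, and the block changed no call. For the WT minus Ndr difference, DESeq2 gave 23 genes past the adjusted threshold in place of 0, and leaving out mice or libraries gave 0 to 1 (Cyp4a12a without mouse 1221). The cause was not tested.

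Jag1, at -0.693 without mouse 1221, turned sign without mouse 1223 (0.194) or 1225 (0.0798), and in the unpaired fit without the hilar library of 1225 (0.166) or 1223 (0.0202) or the peripheral library of 1223 (0.227). Rgl1 (0.501) and Igsf23 (-1.06) turned without 1 library each. The other 22 of the 24 named genes kept their direction in all 17 settings. Of the list medians, 35 of 646 values moved by more than the spread between mice. The number of mice (3) and the spread between them limited the precision, and a gene below the threshold was not shown to be alike in the regions.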
